A study of Mus musculus with 8 samples.

Results

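Transcripts of 42 DNA repair genes were examined in mouse skin keratinocytes, the epithelial cells of the epidermis, after deletion of Hmgb1. The genes were chosen by their known roles in base excision, mismatch, nucleotide excision, end joining and homologous repair, and all 42 were found among the 24421 gene symbols counted. Bulk RNA sequencing had been done on 4 knockout libraries (InvEE, K5 Cre+, HMGB1 fl/fl) and 4 control libraries (InvEE, K5 Cre-, HMGB1 fl/fl), all of strain CBA x C57Bl/6J and with no treatment or age in the labels. InvEE mice express an activated form of the kinase MEK1 from the involucrin promoter, which is active in differentiating epidermis, so knockouts and controls alike carried this transgene. K5 Cre is driven by the keratin 5 promoter of basal keratinocytes, and floxed sequence is also lost in their descendants. Cre was present in knockouts and not in controls, so an effect of Cre itself and one of losing Hmgb1 cannot be told apart. Replicates are numbered in the labels without being called separate animals, so the p-values rest on how far the 4 libraries of a genotype lay apart, and some of that distance may be technical.

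HMGB1 is an abundant chromatin protein that bends DNA and binds distorted or damaged DNA, and it takes part in several repair reactions. Base excision repair removes small damaged bases, mismatch repair corrects copying errors, and nucleotide excision repair cuts out bulky lesions such as those that sunlight leaves in skin. Broken DNA ends are rejoined directly by end joining or copied from the sister chromatid by homologous repair. These are protein activities, and the libraries measured transcript levels.

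Each library held 30506676 to 34229030 counts on genes, of which 46853 to 60235 fell on the 42 repair genes. Hmgb1 itself was at 113 to 126 CPM (read counts relative to the TMM-scaled library size) in knockouts and at 565 to 615 CPM in controls, or -2.32 as a log2 fold change, knockout over control (SE 0.09, adjusted p = 3.576e-07 by edgeR). Scaling factors ran from 0.906 to 1.0003 in knockouts and from 1.02 to 1.06 in controls. Y-linked transcripts were present in knockout replicate 1 and in control replicates 2 and 3 (6110 to 6743 counts over 4 Y-linked genes) and nearly absent from the other libraries (0 to 51 counts). The 6 keratinocyte markers summed to 55932 to 61622 CPM in knockouts and 48144 to 56489 CPM in controls. The other cell types were far lower: 6 immune markers at 14.3 to 38.5 CPM in knockouts and 16.7 to 48.4 CPM in controls, 6 fibroblast markers at 3.41 to 24.0 and 5.98 to 12.03 CPM, 5 melanocyte markers at 6.09 to 7.50 and 5.81 to 6.61 CPM, and 3 endothelial markers at 0.189 to 0.808 and 0.447 to 1.91 CPM. Skeletal muscle markers (3) were at 0.0316 to 0.0982 CPM in knockouts and 0.0279 to 0.246 CPM in controls. None of these markers was at 0 in all 8 libraries, and 1 keratinocyte marker (Krt10) and 1 fibroblast marker (Dcn) were called higher in knockouts. Their part in the values of the repair genes was not tested.

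None of the 42 repair genes passed the test in knockouts against controls, while 8.87% of the 13016 tested genes did (563 higher, 4.33%, and 591 lower, 4.54%, edgeR quasi-likelihood test, Benjamini-Hochberg adjusted p under 0.05). All 42 passed the filter on low counts, which was set over both groups. DESeq2 and limma-voom also called 0 of the 42, where DESeq2 called 14.1% and limma-voom 8.84% of all tested genes. At an unadjusted p under 0.05, DESeq2 had 7 of the 42, against 25.7% of all tested genes. For limma-voom it was 6 of the 42, against 26.1%. With edgeR, 6 repair genes (14.3%) had an unadjusted p under 0.05, against 26.2% of all tested genes. These 6 were Polb and Dclre1c, with higher means in knockouts, and Msh3, Atm, Exo1 and Smug1, with lower means. Groups of libraries did not overlap for 2 repair genes (4.76%), Polb and Msh3, against 17% of all tested genes. Polb was 1 gene with separate groups and higher values in knockouts (7.95% of all genes), and Msh3 was 1 with lower values (9% of all genes). The median log2 fold change was -0.09 over the 42 genes and -0.02 over all tested genes. There were 13 repair genes above 0 and 29 below, against 6100 above and 6916 below among all 13016 tested genes. The median size of a log2 fold change was 0.12 for repair genes and 0.19 for all tested genes. In bulk libraries, fewer cells of a type and less RNA per cell cannot be told apart.

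The intervals around these fold changes say how large a change could have gone uncalled. Standard errors of the log2 fold change ran from 0.08 for Ercc3 to 0.28 for Lig4. The 95% interval lay inside a 2-fold change in either direction for 40 of the 42 genes and inside a 1.5-fold change for 34. The 2 genes whose interval reached beyond 2-fold were Exo1 (-1.001 to -0.04) and Lig4 (-1.04 to 0.20). Exo1 had the largest fitted change of the 42, and 16.6% of all tested genes had a larger one. A gene that was not called may still differ by any amount inside its interval.

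**Figure D1:**
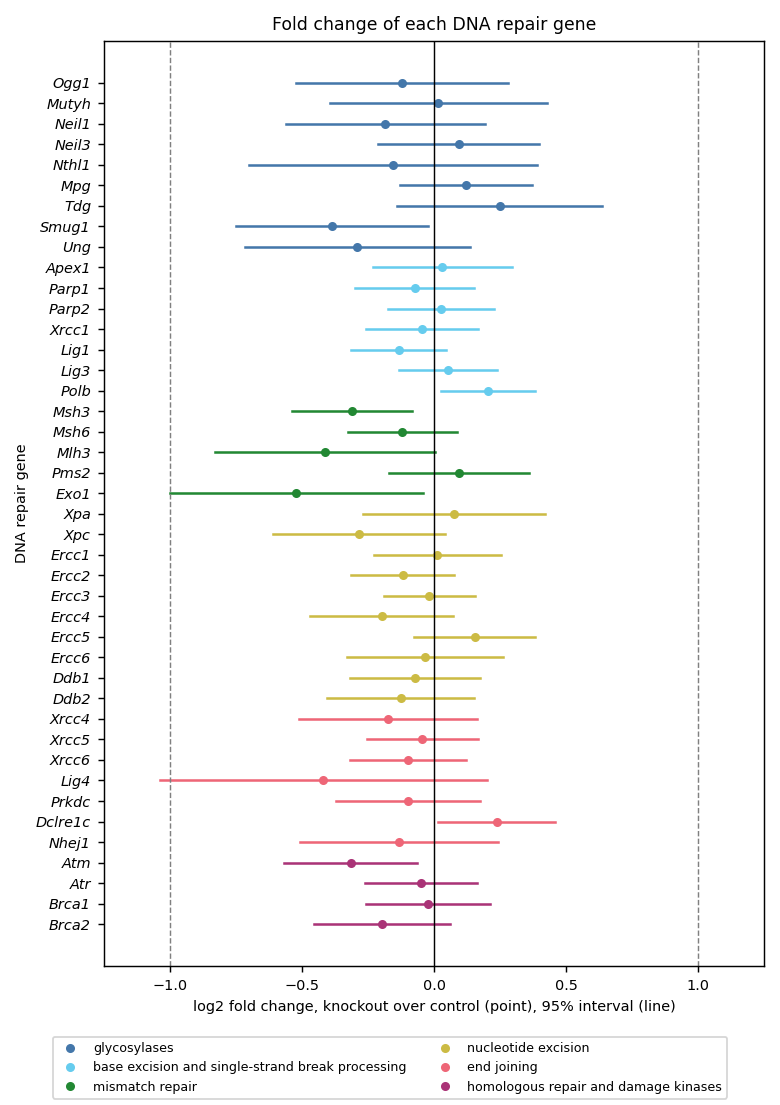
Log2 fold change of each of the 42 DNA repair genes, knockout over control (points), with its 95% interval (lines), from the edgeR test on 4 libraries per group. Colours give the role, the solid line marks no change and the dashed lines a 2-fold change, which the intervals of Exo1 and Lig4 reach and the other 40 do not.

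**Figure D2:**
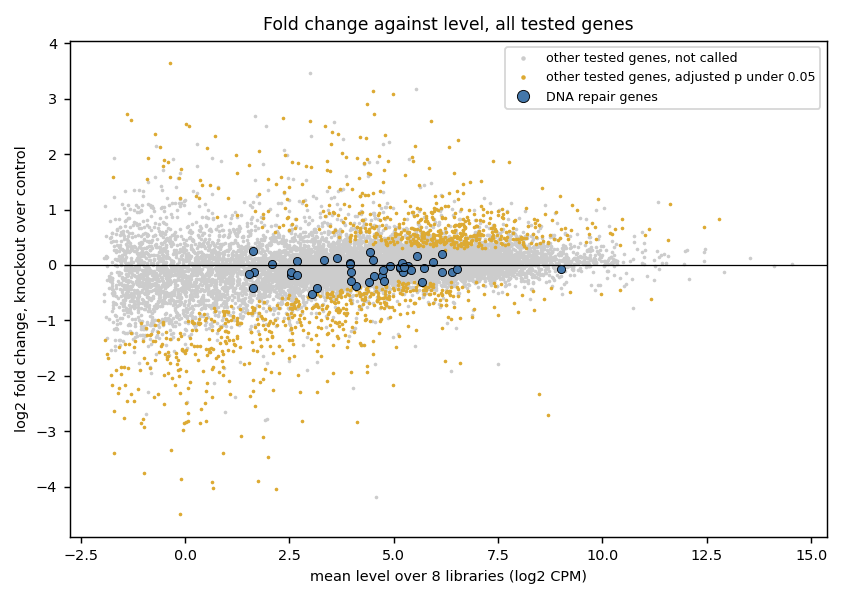
Log2 fold change, knockout over control, against the mean level in log2 CPM for all 13016 tested genes. Repair genes (blue) lie near 0, between -0.52 and 0.25, while the called genes (yellow, 8.87% of all) lie above and below them.

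Levels can be compared between genes only per length, here as CPM per kilobase of exon in the GENCODE annotation of GRCm38, the assembly of mm10. Ddb1 was the most abundant of the 42, at 78.1 CPM per kilobase in knockouts and 82.1 in controls. Its protein is an adaptor of the CUL4 ubiquitin ligase with uses beyond repair. Lig1, Polb, Parp1 and Msh6 followed, at 15.8 to 19.5 CPM per kilobase in knockouts and 16.9 to 20.8 in controls. The lowest levels belonged to Lig4, at 0.507 in knockouts and 0.680 in controls, and to Tdg, at 0.620 and 0.522 CPM per kilobase. The lengths come from this annotation and not from the one used for counting, which is not given in the sources used here.

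DNA glycosylases start base excision by cutting a damaged base from its sugar, and none of the 9 passed the test. Smug1 (chromosome 15, 103153290 to 103167092), which removes uracil and oxidised pyrimidines, had the smallest p of this group. It was at 12.2, 12.6, 16.1 and 17.9 CPM in knockout replicates 1 to 4, against 18.7, 17.1, 24.3 and 16.9 CPM in control replicates 1 to 4. Knockout replicates 1 and 2 were the low ones and knockout replicate 4 lay among the controls, so the groups overlapped (log2 fold change -0.39, SE 0.16, adjusted p = 0.164). Ung, the other main uracil glycosylase, was at 11.8, 9.82, 18.1 and 16.8 CPM in knockouts, against 17.9, 15.1, 15.9 and 20.3 CPM in controls. Its low libraries were again knockout replicates 1 and 2 (adjusted p = 0.372).

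Neil3 (chromosome 8, 53586867 to 53639065), a glycosylase for oxidised bases that also opens crosslinks between strands, had the highest mean CPM of the glycosylases. It was at 20.4, 24.0, 24.2 and 25.2 CPM in knockouts, against 26.6, 24.2, 18.5 and 18.6 CPM in controls, with the controls spanning all knockout values (log2 fold change 0.09, SE 0.14, adjusted p = 0.712). Ogg1, which removes oxidised guanine, averaged 5.60 ± 1.13 CPM in knockouts and 6.10 ± 0.756 CPM in controls (SD, n = 4 each). Mutyh, which removes adenine placed opposite oxidised guanine, averaged 4.29 ± 0.515 and 4.24 ± 0.813 CPM. The other 4 glycosylases, Neil1, Nthl1, Mpg and Tdg, had adjusted p-values of 0.401 to 0.729.

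None of the 7 genes that finish base excision and mend single-strand breaks passed the test. Their median log2 fold change was 0.03 and all 7 intervals lay inside 1.5-fold. Polb (chromosome 8, 22628126 to 22653435), the polymerase that fills the gap, was at 75.7, 76.9, 79.5 and 75.0 CPM in knockouts, against 72.2, 67.1, 59.5 and 67.6 CPM in controls. Each knockout value lay above each control value, by 15.2% at the fitted mean (log2 fold change 0.20, SE 0.08), and the adjusted p of 0.138 missed the threshold. Parp1 (chromosome 1, 180568924 to 180601254), the break sensor that builds chains of ADP-ribose, was the member of this group with the highest mean. It was at 93.9, 76.9, 91.9 and 91.7 CPM in knockouts, against 86.5, 90.7, 86.7 and 108.9 CPM in controls (log2 fold change -0.07, SE 0.10, adjusted p = 0.689).

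The other genes of these steps had adjusted p-values of 0.325 to 0.896. Apex1, the endonuclease that cuts at an emptied sugar, averaged 15.6 ± 1.496 CPM in knockouts and 15.3 ± 1.55 CPM in controls (SD, n = 4 each). Parp2, another sensor, averaged 37.2 ± 1.61 and 36.5 ± 3.41 CPM, and the scaffold Xrcc1 averaged 52.2 ± 4.17 and 53.9 ± 5.22 CPM. Of the ligases that close the nick, Lig1, which also joins fragments in replication, averaged 80.8 ± 6.70 CPM in knockouts and 88.6 ± 2.11 CPM in controls. Lig3, the partner of Xrcc1, averaged 62.0 ± 3.74 and 59.8 ± 4.43 CPM.

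Mismatch repair had the lowest median log2 fold change of the 6 roles, -0.31 over 5 genes, and 2 of its genes were among the 6 with an unadjusted p under 0.05. Msh3 (chromosome 13, 92211872 to 92355003), a subunit of the complex that recognises loops of unpaired bases, had the smallest p of all 42. It was at 18.8, 18.1, 18.4 and 20.4 CPM in knockouts, against 26.8, 21.6, 23.0 and 22.6 CPM in controls. The groups did not overlap, and control replicate 1 was the highest library (log2 fold change -0.31, SE 0.10, adjusted p = 0.0842). Scaling by library totals only put the median log2 fold change over all genes at -0.13, against -0.02 with TMM, and with it Msh3 was called lower (log2 fold change -0.42, adjusted p = 0.0457). Of all genes, 10.5% were called with that scaling, 997 lower (7.66%) and 370 higher.

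Exo1 (chromosome 1, 175880581 to 175913489), the exonuclease that removes the strand with the error, was at 5.80, 5.93, 6.73 and 8.56 CPM in knockouts, against 7.20, 9.94, 13.7 and 7.94 CPM in controls. Control replicate 3 stood highest and knockout replicate 4 lay above 2 controls (log2 fold change -0.52, SE 0.22, adjusted p = 0.156). In the 5 libraries without Y-linked transcripts, which leave out control replicates 2 and 3, the log2 fold change of Exo1 was -0.098, and without control replicate 3 alone it was -0.31. Msh6 (chromosome 17, 87975062 to 87990892), which recognises single mispaired bases, was at 75.5, 64.0, 66.4 and 69.2 CPM in knockouts, against 70.5, 73.8, 85.7 and 68.9 CPM in controls (log2 fold change -0.12, SE 0.09, adjusted p = 0.453). Mlh3, of the MutL complexes that act after recognition, averaged 7.65 ± 2.03 CPM in knockouts and 10.2 ± 1.11 CPM in controls (SD, n = 4 each, adjusted p = 0.193). Pms2, of the same family, averaged 10.3 ± 0.989 and 9.66 ± 0.495 CPM.

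**Figure D3:**
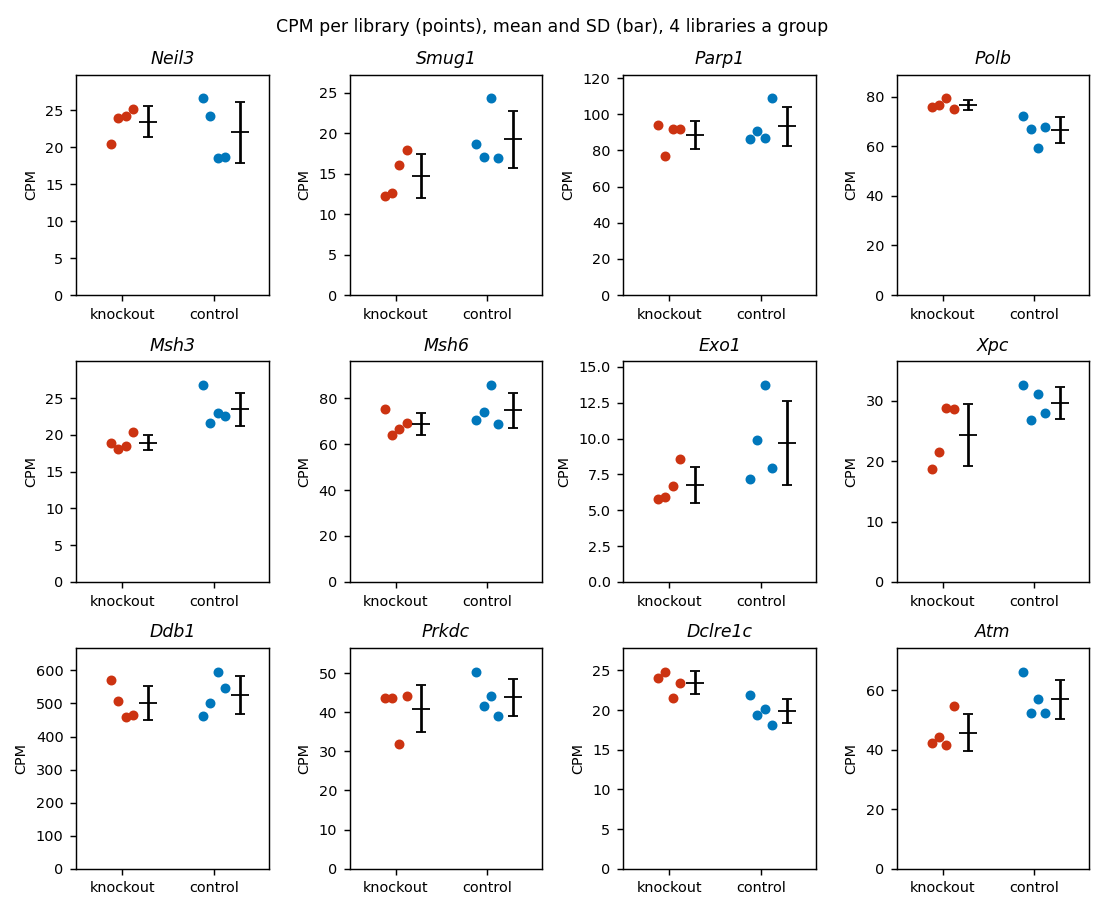
CPM in each library for 12 repair genes, with knockouts (red) left of controls (blue) and the mean ± SD (n = 4) beside each group. The groups are separate for Polb, where knockouts are higher, and for Msh3, where knockouts are lower, and overlap in the other 10 panels.

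Among the 10 nucleotide excision genes none passed the test, and none had an unadjusted p under 0.05. Xpc (chromosome 6, 91489305 to 91515888), the sensor of distorted DNA, came closest. It was at 18.7, 21.5, 28.8 and 28.6 CPM in knockouts, against 32.6, 26.8, 31.2 and 28.01 CPM in controls, with knockout replicates 1 and 2 low and knockout replicates 3 and 4 inside the range of the controls (log2 fold change -0.28, SE 0.15, adjusted p = 0.253). Ddb1 (chromosome 19, 10605327 to 10629819) was at 572, 507, 459 and 465 CPM in knockouts, against 462, 500.2, 595.5 and 546 CPM in controls (log2 fold change -0.07, SE 0.11, adjusted p = 0.725). Its partner Ddb2, which binds ultraviolet damage, averaged 14.9 ± 1.252 CPM in knockouts and 16.3 ± 2.18 CPM in controls (SD, n = 4 each).

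The other nucleotide excision genes had overlapping groups throughout. Ercc2 and Ercc3, the helicases of TFIIH that open the DNA, averaged 35.8 ± 1.86 and 40.0 ± 1.28 CPM in knockouts, against 38.8 ± 3.06 and 40.6 ± 2.13 CPM in controls. Ercc1 and Ercc4 form the nuclease that cuts on one side of the lesion. They averaged 15.5 ± 0.213 and 21.5 ± 2.97 CPM in knockouts, against 15.4 ± 1.63 and 24.6 ± 2.45 CPM in controls. Ercc5, the nuclease of the other side, averaged 49.4 ± 2.83 and 44.4 ± 5.77 CPM. Ercc6, which acts at stalled RNA polymerase, averaged 35.4 ± 2.95 CPM in knockouts and 36.2 ± 7.23 CPM in controls, and Xpa, a scaffold of the complex, averaged 6.59 ± 0.798 and 6.25 ± 0.863 CPM (SD, n = 4 each).

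End joining was represented by 7 genes, 6 of them with negative log2 fold changes (6916 of all 13016 tested genes) and none called. Dclre1c (chromosome 2, 3424131 to 3464130), which encodes Artemis, a nuclease that trims and opens DNA ends, was the exception in sign. It was at 24.1, 24.8, 21.5 and 23.4 CPM in knockouts, against 21.9, 19.4, 20.1 and 18.1 CPM in controls. The overlap came from knockout replicate 3 lying below control replicate 1 (log2 fold change 0.24, SE 0.10, adjusted p = 0.162). Prkdc (chromosome 16, 15637866 to 15842235), the kinase that Ku brings to DNA ends, was at 43.6, 43.6, 31.8 and 44.2 CPM in knockouts, against 50.3, 41.7, 44.0 and 39.0 CPM in controls (log2 fold change -0.10, SE 0.12, adjusted p = 0.647). The Ku subunits Xrcc5 and Xrcc6 averaged 37.2 ± 3.92 and 25.9 ± 2.43 CPM in knockouts, against 38.4 ± 1.80 and 27.8 ± 1.57 CPM in controls (SD, n = 4 each). Of the genes of the ligation step, Xrcc4, Lig4 and Nhej1 averaged 5.98 ± 0.910, 2.64 ± 0.856 and 2.98 ± 0.177 CPM in knockouts, against 6.76 ± 0.496, 3.54 ± 0.995 and 3.27 ± 0.397 CPM in controls.

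All 4 homologous repair genes and damage kinases had log2 fold changes below 0, beside 6916 of all 13016 tested genes. None of the 4 was called. Atm (chromosome 9, 53439149 to 53536740), the kinase that signals broken DNA ends, was at 42.3, 44.3, 41.5 and 54.7 CPM in knockouts, against 66.1, 52.3, 56.9 and 52.4 CPM in controls. Knockout replicate 4 lay inside the range of the controls and the other 3 knockouts below it (log2 fold change -0.32, SE 0.11, adjusted p = 0.108). Atr, the kinase of stalled replication, averaged 35.0 ± 3.83 CPM in knockouts and 36.2 ± 1.49 CPM in controls (SD, n = 4 each). Brca1 averaged 30.1 ± 3.07 and 30.5 ± 2.80 CPM, and Brca2, which loads the recombinase onto DNA, averaged 24.5 ± 2.27 and 28.1 ± 3.59 CPM.

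Libraries of 1 genotype differed among themselves. Knockout replicate 1 held the lowest of the 8 values for 14 of the 42 genes, and control replicate 1 the highest for 13. Set against each gene's own mean over all libraries, the median repair gene was at -0.10 and -0.08 (log2) in knockout replicates 1 and 2, and at 0.04 and 0.05 in knockout replicates 3 and 4. In control replicates 1 to 4 it was at 0.04, 0.03, 0.03 and 0.01. These counts and medians were not taken over all tested genes, so they are not shown to be particular to repair genes. The TMM factors of knockout replicates 1 to 4 were 0.906, 0.9504, 1.0003 and 0.999, so the 2 libraries with the lower factors were the 2 with the lower median. CPM are divided by the factor, so a lower factor gives a higher CPM. With library totals only, the median log2 fold change of the 42 genes was -0.19, against -0.09 with TMM (-0.13 and -0.02 over all tested genes). The part of the scaling in the library medians was not tested. No repair gene was called in any of the 8 comparisons that left out 1 library, where the smallest adjusted p was 0.0548, for Atm without knockout replicate 4. Of all genes, those comparisons called 5.44%, 3.51%, 9.46% and 5.88% without knockout replicates 1 to 4, and 7.08%, 4.18%, 6.52% and 5.86% without control replicates 1 to 4. Other choices of processing also called none of the 42 genes, with 8.6% of all genes called under RLE scaling, 9.09% under upper-quartile scaling, 5.9% with no filter on low counts, 8.97% with a filter of 1 CPM in 4 libraries, 9.04% with non-robust dispersion and 5.55% with the replicate number in the model.

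**Figure D4:**
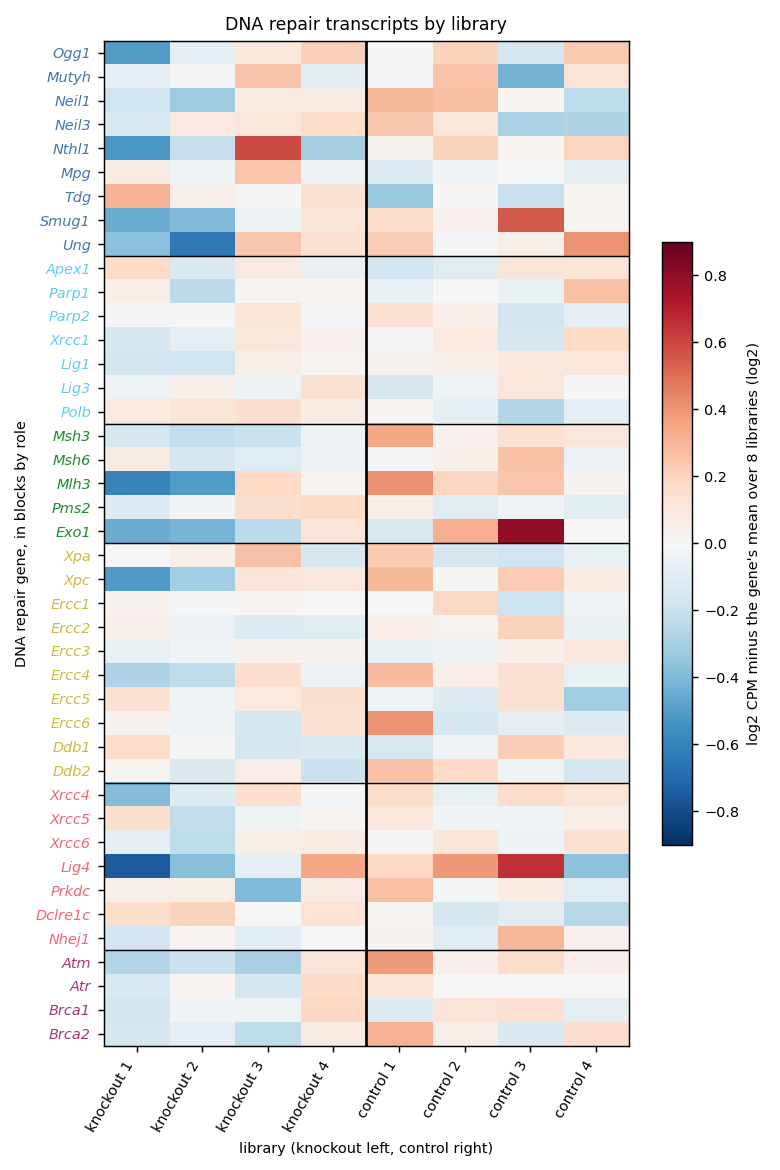
Log2 CPM of the 42 repair genes in each library, as the difference from the gene's mean over all 8, with knockouts left of the vertical line, controls right of it and genes in blocks by role. Blue (lower) cells gather in knockout replicates 1 and 2 for Smug1, Ung, Mlh3, Xpc and Lig4.

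Y-linked transcripts were unevenly spread over the genotypes, so the comparison was repeated with a term for them and within the 5 libraries that lacked them, 3 knockouts and 2 controls. Both called 0 of the 42 genes, against 8.25% of all genes with the term and 2.89% of all genes in the 5 libraries. Within those 5, the log2 fold changes of the 6 genes with an unadjusted p under 0.05 in all 8 libraries were -0.38 for Msh3, -0.34 for Atm, -0.10 for Exo1, -0.19 for Smug1, 0.14 for Polb and 0.22 for Dclre1c. The 3 libraries with Y-linked transcripts included 1 knockout, too few for a separate test.

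Of 71 other genes for homologous recombination, crosslink repair, damage bypass, direct reversal and damage signalling, 2 rose and 69 did not pass (2.82% called, against 8.87% of all tested genes), with a median log2 fold change of -0.02. Nbn, of the complex that senses broken ends and activates the Atm kinase, was at 54.5, 53.2, 52.1 and 61.5 CPM in knockouts, against 42.9, 45.5, 40.7 and 42.9 CPM in controls, with no overlap (log2 fold change 0.36, SE 0.08, adjusted p = 0.0253). Mgmt, which takes methyl groups off guanine, was at 5.19, 4.03, 4.56 and 3.85 CPM in knockouts, against 2.74, 3.36, 2.65 and 2.28 CPM in controls, also with no overlap (log2 fold change 0.68, SE 0.19, adjusted p = 0.0474). The Nbn call was lost in 5 of the 8 comparisons that left out 1 library (adjusted p of 0.0283 to 0.0614 over the 8) and the Mgmt call in all 8 (0.0592 to 0.108). Both were lost within the 5 libraries without Y-linked transcripts (0.144 for Nbn and 0.163 for Mgmt), with upper-quartile scaling and with library totals only, and the Mgmt call also with no filter on low counts (0.0526).

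Several repair genes are transcribed mainly in dividing cells, and some are p53 targets in human cells, so lists of other genes for these programs stand beside them. Of 28 S phase genes, 1 fell, Rrm2, a subunit of ribonucleotide reductase (52.6 ± 4.35 CPM in knockouts and 86.7 ± 18.7 CPM in controls, SD, n = 4 each), and 27 did not pass (3.57% called, against 8.87% of all tested genes). The median log2 fold change of that list was -0.20. Of 25 G2 and M phase genes, 3 rose, Ckap2l, Anln and Cdc20, and 22 did not pass (12% called, against 8.87% of all tested genes), with a median of 0.12. Ckap2l, a spindle protein, was at 144 ± 5.99 CPM in knockouts and 99.1 ± 2.86 CPM in controls (SD, n = 4 each). Of 22 p53 targets, 5 rose (Aen, Phlda3, Cdkn1a, Perp and Trp53inp1), 1 fell (Plk3) and 16 did not pass (27.3% called, against 8.87% of all tested genes), with a median of 0.29. Plk3, a stress kinase, was at 31.7 ± 2.33 CPM in knockouts and 57.1 ± 6.77 CPM in controls, and Aen, a nuclease of apoptosis, at 61.6 ± 7.92 and 38.3 ± 3.04 CPM. The cell cycle inhibitor Cdkn1a was at 411 ± 48.4 CPM in knockouts and 255 ± 51.3 CPM in controls (adjusted p = 0.0225 by edgeR). Xpc and Ddb2, which p53 induces in human cells, were not called. Whether p53 induces them in these mouse cells was not tested. Differences between these lists and the repair genes were not tested.

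Reads of overlapping genes limit some of these counts, since the use of strand in counting is not given in the sources used here. Of the 42 genes, 16 share exon bases with another counted gene, from 0.132% of the exon length for Parp1 to 35.7% for Mpg, which overlaps Nprl3. Lig3 shares 25.1% with Rffl and Ddb2 shares 23.8% with Acp2, so their values are uncertain, by an amount that was not measured. None of these genes was called.

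Many repair genes start close to a neighbour that is transcribed the other way. Within 1000 bases of the GENCODE start of a repair gene there were 14 tested protein-coding genes on the opposite strand. They lay at 21 to 485 bases, and none of the 14 was called. The pair had negative log2 fold changes in 7 cases, positive in 2 and opposite signs in 5. Atm and Npat, a regulator of histone genes, start 307 bases apart, and Npat had a log2 fold change of 0.23 (SE 0.11, adjusted p = 0.236), beside -0.32 for Atm.

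The start region of Atm is shown, chosen after its values were seen, because this gene had the smallest p of its role and differed in sign from its neighbour, whose own start lies outside the window shown. The window runs from 250 bases before to 50 bases after the RefSeq start on GRCm38.p6, at chr9:53536622-53536921. It is on the minus strand and written 5′ to 3′ along the gene. That start is not the GENCODE start from which the distance to Npat was measured. Capitals mark matches, on either strand, to the GC box GGGCGG bound by SP1, the CCAAT box, and GCATGCGC, the core of the NRF1 motif. The E2F motifs TTTCCCGC and TTTGGCGC were searched in the same way.
Atm: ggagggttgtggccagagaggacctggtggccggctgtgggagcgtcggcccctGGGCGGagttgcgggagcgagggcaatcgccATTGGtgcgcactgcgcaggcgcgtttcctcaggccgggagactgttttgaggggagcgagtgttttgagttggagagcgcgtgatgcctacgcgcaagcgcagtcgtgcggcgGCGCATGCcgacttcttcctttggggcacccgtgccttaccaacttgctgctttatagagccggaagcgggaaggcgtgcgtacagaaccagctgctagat
The Atm window holds 1 GC box, 1 CCAAT box and 1 NRF1 core.

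Start windows were found for 36 of the 42 genes, 41 windows in all. The NRF1 core, bound by a factor that controls many housekeeping genes, was in 9 of these windows (22%), those of Atm, Ercc6, Lig1, Lig4, Mlh3, Parp2, Xpa and Xrcc5, against 5.06% of 12607 windows of all tested genes. The CCAAT box was in 53.7% of repair windows, against 37.6%, and the GC box in 65.9%, against 62%. The E2F motif TTTCCCGC was in 3 repair windows (7.32%), of Brca2, Msh6 and Xrcc6, against 1.88%, and TTTGGCGC in 1 (2.44%), against 0.928%. The shares describe these letters in these windows, and no test was made of them. The 8 genes with an NRF1 core had log2 fold changes of -0.42 to 0.08, none called.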

How the data were processed

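The authors deposited whole-number counts per gene symbol, 1 file per library, with no normalization, as the values show. Per the submitters' processing notes, reads were handled against mouse build mm10 with tools that include TopHat2 2.1.0, Trimmomatic 0.35, SAMtools 0.1.18 and FastQC 0.11.4. The counting tool, annotation and strand setting are not given in the sources used here. Closing lines that name no gene were left out (reads outside genes 15.7 to 21.7%, ambiguous reads 0.918 to 1.11% of each total). The number in the file name of knockout replicate 4 differs from its title, and the title was followed.

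Counts were filtered with filterByExpr, scaled by TMM and tested with edgeR's quasi-likelihood test (robust, genotype as the only term), with Benjamini-Hochberg adjustment over 13016 genes and a threshold of 0.05. CPM use the TMM-scaled library sizes. Intervals of the log2 fold change (95%) use the t distribution on the test's degrees of freedom. Versions were edgeR 4.0.16, DESeq2 1.42.0 and limma 3.58.1 under R 4.3.3. The scripts were tested on simulated data, with 50 changed genes per fold change. There the edgeR test recovered 2% of 1.25-fold, 26% of 1.5-fold and 64% of 2-fold changes. Of the genes called there, 4.35% with edgeR and 22.1% with DESeq2 were unchanged. The changed genes were drawn from all 13016 tested genes, whose median SE was 0.14 in the data, against 0.12 for the repair genes. Fewer genes were changed in the simulation than were called in the data (1154). The shares recovered therefore need not hold for the 42 repair genes.

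Values in every library are given for the gene of smallest p and the gene of highest mean CPM in each of 6 roles. Exo1, Ung and the genes paired by position were added after their values were seen. The 42 genes, the lists, the tests and the alternatives were chosen with earlier results of these data known, and the lists are described by counts and medians, with no set test. Libraries of a group differed by far more than sampling noise (chi-square per gene 31.8 to 104), so none was counted as a duplicate.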

Additional observations from a re-analysis of the deposited data

Results flagged for a closer look

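In 5 of 84 groups of 4 libraries (42 genes, 2 genotypes), 1 library stood apart by a gap, as a share of the group's range, above Dixon's 95% critical value, and chance flags about 1 in 20 such groups. Parp1 was at 76.9 CPM in knockout replicate 2, against 91.7 to 93.9 CPM in the other knockouts. Parp2 was at 39.6 CPM in knockout replicate 3, against 36.3 to 36.6 CPM. Prkdc was at 31.8 CPM in knockout replicate 3, against 43.6 to 44.2 CPM. Ercc6 was at 47.0 CPM in control replicate 1, against 31.7 to 33.5 CPM in the other controls, and Atr at 38.4 CPM in control replicate 1, against 35.4 to 35.5 CPM.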

How the results depend on the processing

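The count of repair genes called was 0 under 18 of 19 alternatives and 0 to 0 over the 8 that left out 1 library. The exception was library totals only, with 1 called lower (Msh3, log2 fold change -0.42). Of the 71 other repair genes, those called higher numbered 4 with DESeq2, 1 with no filter on low counts, 1 with the replicate block (neither Nbn, adjusted p = 0.0623, nor Mgmt, 0.1002), 0 with upper-quartile scaling, 0 in the 5 libraries without Y-linked transcripts and 0 with library totals only (1 lower), and 0 to 3 leaving out 1 library. Over all genes, 1085 were higher and 920 lower with DESeq2, 370 and 997 with library totals only, 375 and 348 with the replicate block and 141 and 242 in those 5 libraries. Leaving out 1 library gave 200 to 678 higher and 262 to 569 lower. The causes were not tested, other than that fewer libraries enter some comparisons. Under the 11 alternatives that did not leave out 1 library, 20 of 462 fold changes of repair genes had the opposite sign, in 11 genes, and 22 of 336 leaving out 1 library, all uncalled. Among the genes given in every library these were Neil3 with library totals only (-0.011), Parp1 without control replicate 4 (0.011, range over 8 from -0.11) and Prkdc without knockout replicate 3 (0.0041, range from -0.15). Over all repair genes, the largest main log2 fold change that reversed under those 11 alternatives was that of Lig4 (-0.42). Leaving out 1 library, the largest that reversed was 0.12 in size. Both alternatives on Y-linked transcripts were chosen after seeing the data. Deviations of same-numbered libraries correlated at -0.228 to -0.0528. With 4 libraries a group, these values cannot show whether same-numbered libraries share more than a number. The replicate block called 0 repair genes.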
